A study of Drosophila melanogaster with 2 samples.

Results

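The pulse genes are zygotic genes of the early Drosophila melanogaster embryo whose transcripts were nearly absent at the start of development, rose, and were nearly gone again in the oldest embryos. They were chosen by their own levels in the pseudo-time table of single embryos. A gene had to average at most 1 normalized UMI over the first 10 embryos and at least 5 over positions 41 to 49 or positions 50 to 58. Its mean over positions 76 to 84 had to be under 20% of the larger of those 2 means. Of the 7629 genes in the table, 45 met these limits, and their values in the 4 windows are therefore a description and not a test. Another 139 genes met the same start and peak limits but kept 20% or more of the peak, and they are called kept zygotic genes here. They serve as the comparison where a property was not used in the choice. Their change in level between the peak and the last window is a description only.

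The embryos were wild-type animals of the DGRP line 737, an inbred line of the Drosophila genetic reference panel. They came from 2 cages and were no older than 3 h. Per the study, eggs were collected in 3 intervals of 1 h and aged for up to 2 h more. The collection interval differed along the pseudo-time order, was not a covariate in any fit, and its effect was not tested. RNA was measured in 84 single embryos, each 1 biological replicate, which the study ordered by transcriptome similarity along a pseudo-time axis and grouped into clusters. The clusters hold 29 embryos (cluster 1), 11 (cluster 2), 6 (cluster 3), 3 (cluster 4), 9 (cluster 5), 7 (cluster 6), 10 (cluster 7) and 9 (the last cluster, called 9 here). Of the 84 embryos, 30 were genotyped as female and 31 as male, and the cages gave 47 embryos (A) and 37 (B).

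The fly embryo starts on RNA laid down by the mother, and its nuclei divide in a common cytoplasm before membranes enclose them. Transcription of the embryo's own genome begins with a small early group and then with a broad wave at the blastoderm stage, when the nuclei are wrapped into cells. Nuclear cycles before that are short, and genes transcribed then are known to be often short and without introns.

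The embryos held between 274491 and 2105275 UMIs each (median 932058). A UMI, or unique molecular identifier, marks 1 captured RNA molecule, and a normalized UMI is a share of the embryo's total, scaled to the smallest total of 274491. Values are therefore relative to all RNA of an embryo, and fewer expressing cells and fewer molecules per cell cannot be told apart in whole embryos. The authors derived both the clusters and the order from this transcriptome data, and differences between clusters are therefore not independent of the staging. Eggs that lacked early transcripts, scw among them, had been set aside as unfertilized, so that the embryos were selected in part on a pulse gene. Clusters 6 and 7 interleave at positions 64 to 66. The maternal transcript dhd averaged 676 in cluster 1 and 5.29 in cluster 9.

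The summed level of the 45 genes ran from 3.5 to 28.8 in the embryos of cluster 1, with a median of 6.04. Cluster 2 held 48 to 166, cluster 3 held 340 to 650 and cluster 4 held 1671 to 2294, and the highest range, 2861 to 3649, belonged to cluster 5. Cluster 6 held 2123 to 2650, cluster 7 held 673 to 1969, and the last cluster 49.8 to 130 with a median of 71.2. At the height in cluster 5 the pulse genes made up 1.17% ± 0.0937 (SD, n = 9) of all UMIs of an embryo, against 0.00316% ± 0.00211 (SD, n = 29) in cluster 1 and 0.0283% ± 0.0101 (SD, n = 9) in cluster 9. No embryo of cluster 9 reached the lowest embryo of cluster 3.

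**Figure D1:**
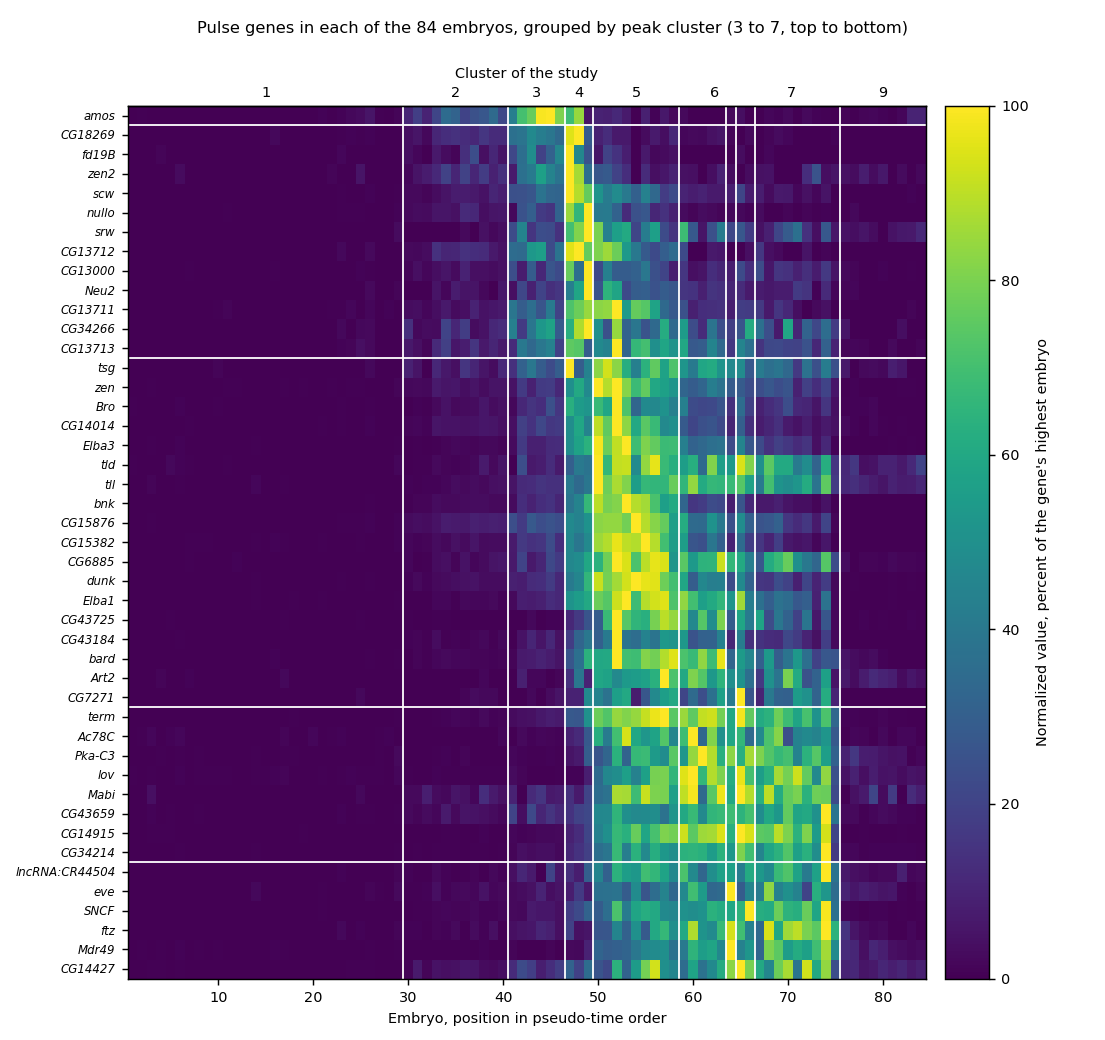
The level of each of the 45 pulse genes (vertical axis) in each of the 84 embryos (horizontal axis, position in pseudo-time), as percent of the gene's highest embryo. Genes are grouped from top to bottom by the cluster of their highest mean, from 1 gene in cluster 3 through 12, 18 and 8 genes to 6 genes in cluster 7, and white vertical lines mark a change of cluster.

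The pulses were not simultaneous. By their highest cluster mean, cluster 3 was the peak of 1 gene, cluster 4 of 12, cluster 5 of 18, cluster 6 of 8 and cluster 7 of 6. A running median over 5 embryos had reached 20% of its maximum by the end of cluster 4 for 43 of the 45 genes, 4 of them within cluster 2 and 18 within cluster 3. The fall was more spread out: the running median had first gone below 20% within cluster 4 for 1 gene, while 4 genes did so within cluster 5, 8 within cluster 6, 13 within cluster 7 and 19 within the last cluster. The running median stood at 50% of its maximum or more for 5 to 26 positions, with a median of 19. The shortest pulse by this measure was that of nullo and the longest were those of eve, term, CG43659 and CG7271.

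By highest cluster mean the first gene to peak was amos, which encodes a proneural bHLH factor known from sense organs. By the running median its maximum was at position 46, after those of CG18269 and fd19B at position 45. Only amos had its highest mean in cluster 3. Its 6 embryos of cluster 3 ran from 11.0 to 25.6 with a median of 20.2. In the 3 embryos of cluster 4, in pseudo-time order, amos stood at 17.7, 21.7 and 1.43 normalized UMIs. The last of these lay below every embryo of cluster 3, so the fall of amos began within cluster 4. In cluster 5 no embryo exceeded 3.0.

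The group with its peak in cluster 4 holds scw, which encodes a BMP ligand that acts with Dpp on the dorsal side, and nullo, which is needed for stable furrows when the nuclei are wrapped into cells. The 3 embryos of cluster 4 held 106, 93.9 and 81 normalized UMIs of scw, and all 3 stood above every other embryo. In cluster 5 scw ran from 18.8 to 54.5 with a median of 42.8. For nullo the 3 embryos of cluster 4 held 37.1, 28.7 and 43.7, and the embryos of cluster 5 ran from 3.93 to 18, without overlap. In cluster 6 nullo was at most 1.43. In cluster 2 nullo already ran from 1.07 to 5.17, against at most 0.356 in cluster 1. The rise of nullo thus began by cluster 2, and its peak and most of its fall lay within clusters 4 to 6.

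CG13000, a single-exon gene on the X chromosome, was the second highest of this group, with 86.2, 40.7 and 113 in the 3 embryos of cluster 4. The female embryos held the first and the last of these values, and the male embryo held 40.7. CG18269 had 33.7, 35.3 and 10.0 in the same embryos and was at 0 in all 9 embryos of cluster 9. The forkhead gene fd19B and the homeobox gene zen2 resembled amos in that their last cluster 4 embryo was the lowest of the 3. For fd19B the 3 values were 14.2, 6.60 and 3.58, and for zen2 they were 13.9, 12.0 and 5.02. The summed level of the 12 genes of this group was 342 ± 32.2 (SD, n = 3) in cluster 4, 146 ± 42 (SD, n = 9) in cluster 5 and 52.9 ± 17 (SD, n = 7) in cluster 6.

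The most abundant pulse genes, dunk and bnk, peaked in cluster 5. Both act in cellularization: dunk in the placement of myosin at the early furrows, and bnk (bottleneck) in restraining the actin network until the furrows have grown in. In cluster 5 dunk ran from 314 to 451 with a median of 413, and bnk from 273 to 484 with a median of 394. The ranges of the 2 genes overlapped in cluster 5. In cluster 6 dunk ran from 134 to 267 and bnk from 53.8 to 158, both below every embryo of cluster 5. As a share of its cluster 5 mean, bnk stood at 6.31% in cluster 7 and dunk at 17.8%. In cluster 9 bnk was at most 1.22 and dunk at most 2.58.

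The next genes of the cluster 5 group were bard and CG15876, whose functions are little described. In cluster 5 bard ran from 201 to 335 with a median of 263, and CG15876 from 175 to 310 with a median of 256. The 2 genes parted afterwards. In cluster 6 bard averaged 89.1% of its cluster 5 mean and CG15876 averaged 52.7%, and in cluster 7 the shares were 44.5% and 22.4%.

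Elba1 and Elba3 encode 2 subunits of the Elba complex, which binds insulator elements in the early embryo. Elba3 ran from 96.6 to 142 in cluster 5 with a median of 110, and Elba1 from 79.9 to 116 with a median of 103. In cluster 6 Elba1 averaged 78.5% of its cluster 5 mean and Elba3 44.9%. In cluster 9 the means were 0.115 ± 0.233 for Elba1 and 0.228 ± 0.318 for Elba3 (SD, n = 9). Both had left the range of their peak by cluster 7, where Elba3 was at most 32.9 and Elba1 at most 60.2.

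Besides scw, 4 further BMP genes were pulse genes. The metalloprotease gene tld, whose product cleaves the antagonist Sog, ran from 18 to 37.5 in cluster 5 with a median of 31.5. The gene tsg, whose product binds BMPs together with Sog, ran from 6.28 to 13.5 with a median of 10.5. The homeobox gene zen, which specifies the amnioserosa, ran from 43.2 to 83.2 with a median of 63.2. In cluster 9 zen was at most 0.937, while tld still ran from 1.49 to 7.52. By cluster mean the order of peaks was scw and zen2 in cluster 4, then zen, tld and tsg in cluster 5.

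The terminal gap gene tll, which encodes a nuclear receptor, ran from 53.9 to 97 in cluster 5 with a median of 74.7 and from 56.1 to 81.1 in cluster 6. Its cluster 9 embryos held 5.64 to 13.1, so tll kept 12.5% of its peak. Bro (Big brother), which encodes the partner subunit of the Runt-domain factors, ran from 15.3 to 46.8 in cluster 5. Its 3 embryos of cluster 4 lay between 24.4 and 29.6, inside that range.

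The 8 genes with a peak in cluster 6 first reached 20% of their maximum between position 43, for CG43659, and position 50, for lov. Their summed level was 1007 ± 47.6 (SD, n = 7) in cluster 6 against 803 ± 121 (SD, n = 9) in cluster 5. The gene term was the most abundant, from 249 to 326 in cluster 6 with a median of 282. Its cluster 5 range of 241 to 332 contained these values, so term stood on a plateau over the 2 clusters. CG14915 ran from 187 to 251 in cluster 6 with a median of 232, and from 111 to 202 in cluster 5.

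A pair of this group belongs to cyclic AMP signalling: Pka-C3 encodes a catalytic subunit of protein kinase A, and Ac78C an adenylyl cyclase, the enzyme that makes cyclic AMP. Pka-C3 ran from 119 to 227 in cluster 6 with a median of 191, and from 1.72 to 37 in cluster 9. Ac78C ran from 8.58 to 25.7 in cluster 6 with a median of 17, and was at most 0.594 in cluster 9. The gene lov (jim lovell), which encodes a BTB-domain protein, went from 1.74, 1.94 and 15.1 in the 3 embryos of cluster 4 to between 61.9 and 145 in cluster 5. The lowest cluster 5 embryo thus held more lov than any embryo of cluster 4. The falls of lov and Pka-C3 hold for the 84 ordered embryos. In 38 further barcodes of the raw tables, of no group here, lov had a median of 25.1 against a mean of 10.1 in cluster 9. Pka-C3 had a median of 1.56 in these barcodes, but the highest of them held 111 and 109, against at most 37 in cluster 9.

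The last group, with its peak in cluster 7, holds the pair-rule genes eve and ftz, which lay out the segments in stripes. For eve the embryos of cluster 7 ran from 7.90 to 39.2 with a median of 18.5, and those of cluster 6 from 11.5 to 27.1. For ftz they ran from 8.45 to 25.1 with a median of 20.8, against 11.0 to 22.1 in cluster 6. The ranges of clusters 6 and 7 overlapped for both genes. In cluster 9 eve was at most 3.79, and so was ftz.

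SNCF was the most abundant gene of the last group, with 68.4 to 184 in cluster 7 and a median of 116, and 0 to 2.21 in cluster 9. Mdr49, which encodes an ABC transporter known from germ cell migration, ran from 24.2 to 74.7 in cluster 7 with a median of 48.8. Its level in cluster 7 averaged 173% of that in cluster 5, the second highest such share after ftz with 182%. The single noncoding member, lncRNA:CR44504, ran from 9.10 to 23.8 in cluster 7. Its annotated span on chromosome 2R (19659645 to 19661847, minus strand) holds the hairpins of the miR-309 cluster, whose microRNAs are known for the clearance of maternal mRNA. The microRNAs themselves were not measured here.

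**Figure D2:**
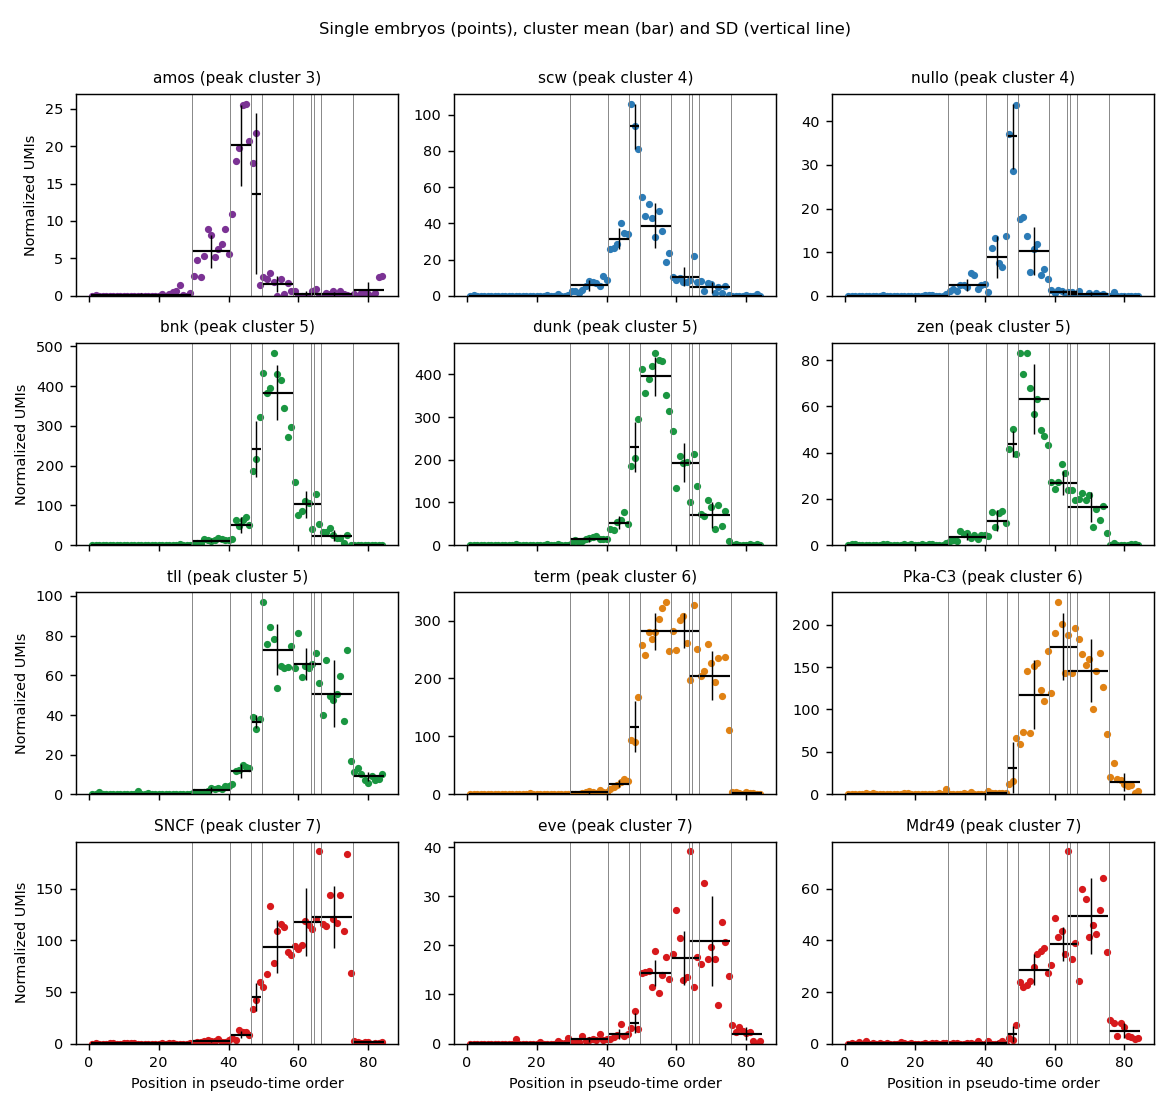
Normalized UMIs (vertical axis, linear) of 12 pulse genes in each of the 84 embryos in pseudo-time order (horizontal axis), with the mean (horizontal bar) and the SD (vertical line) of each cluster. Colours give the peak cluster and grey lines a change of cluster, with clusters 6 and 7 interleaved at positions 64 to 66. From amos to Mdr49 the maximum moves from cluster 3 to cluster 7, and all 12 genes are low in cluster 9.

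In the last window Mdr49 stood at 17% and CG14427 at 16.8% of the peak, and the nearest genes left out were CG14111 with 20.2% and CG14937 with 20.6%. Of these, CG14111 hosts the pulse gene SNCF in an intron on the same strand. By peak level the lowest members were CG7271 with 5.28 and srw with 5.71, and the nearest genes left out were CG16813 with 3.77 and CG13653 with 3.62. By level in the first 10 embryos the highest members were lov with 0.878 and Pka-C3 with 0.690. Z600, which helps to pause the nuclear cycles, missed this limit with 1.10, and geko with 2.58.

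A first comparison that used none of the windows of the rule set the 11 embryos of cluster 2 against the 19 embryos of cluster 1 at positions 11 to 29, to see which pulse genes had already risen in cluster 2. In edgeR with Benjamini-Hochberg adjustment, 34 of the 45 pulse genes were higher in cluster 2, where the adjusted p was under 0.01 and the log2 fold change over 1. Of all 7619 genes tested, 0.906% were higher by the same rule, 3.32% were lower and 4.23% passed in either direction. None of the 45 was lower. The median log2 fold change was 3.61 for the pulse genes, 0.06 for the kept zygotic genes and 0.02 for all genes. Of the kept zygotic genes 23 of 139 were higher. The rule requires low values up to position 10 and a higher mean at positions 41 to 49 or 50 to 58. It sets no limit on the positions compared here, but levels near 0 in cluster 1 left little room for a fall. The direction of the calls is therefore no independent result.

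By peak group, the 1 gene with its peak in cluster 3 was called, with 11 of 12 of the cluster 4 group, 15 of 18 of the cluster 5 group, 4 of 8 of the cluster 6 group and 3 of 6 of the cluster 7 group. CG15876 had the highest level in cluster 2, from 8.82 to 27.5 with a median of 22.6, against at most 3.23 in the 19 embryos of cluster 1. Its log2 fold change was 4.50 with an adjusted p of 6.55e-16 (edgeR). The log2 fold change of dunk was 4.23 with an adjusted p of 8.06e-14 (edgeR), and its 11 embryos of cluster 2 ran from 4.12 to 22.5, above every embryo of cluster 1. The 2 groups did not overlap for 11 of the 45 genes, with cluster 2 the higher, against 0.249% of all genes.

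The 11 genes that were not called were srw, CG43725, Art2, CG7271, CG14915, Pka-C3, lov, Ac78C, Mdr49, ftz and lncRNA:CR44504. Pka-C3 had a median of 0.703 in cluster 1 and 0.534 in cluster 2, and lov 0.751 and 0.929, so both stood at a low and like level in the 2 clusters. Counts were small here: 15 of the 45 genes had only 1 to 3 UMIs in all 19 embryos of cluster 1, and their fold changes are uncertain. With DESeq2 34 were called, and with limma on log2(value + 1) 23 of the 34 calls held. The added 1 shrinks fold changes at levels this low, and the limma median was 1.01, at the limit on size. At an unadjusted p under 0.05, limma and edgeR each had 39 of the 45 genes, against 33.5% and 32.2% of all genes.

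A second comparison outside the windows set the 10 embryos of cluster 7 against the 7 of cluster 6, to see which pulse genes were falling between them. In edgeR, 12 of the 45 pulse genes were lower in cluster 7 by the same limits, against 1.19% of all genes. None was higher, against 0.984% of all genes, and in either direction 2.18% of all genes passed. The median log2 fold change of the 45 genes was -0.59, against 0.29 for the kept zygotic genes and 0.06 for all genes. Among the kept zygotic genes 13 of 139 were higher and 1 was lower. The rule split kept zygotic genes from pulse genes by their level in the last window. A difference between these sets on the way to that window is therefore a description and no independent result. The rule requires a fall from the higher peak window to the last window, so each gene had to fall at some point, and the direction of the calls is no independent result. Some had fallen before cluster 6: amos went from a mean of 17.9 at positions 41 to 49 to 1.60 at positions 50 to 58.

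Of the 12 genes 11 had their peak in cluster 5 and 1, CG13713, in cluster 4. The log2 fold change of bnk was -2.16 ± 0.31 (SE), with an adjusted p of 4.33e-05 (edgeR), and its cluster 7 embryos ran from 1.19 to 42.8, below every embryo of cluster 6. Both other genes without overlap were dunk, which fell by 1.55 on the log2 scale with an adjusted p of 0.000214, and Elba3, which fell by 1.51 with an adjusted p of 0.000818 (edgeR). Over all genes, 0.564% had every cluster 7 embryo below every cluster 6 embryo. CG14014 had the lowest adjusted p, 1.28e-05 (edgeR), with a log2 fold change of -1.68, a median of 30.7 in cluster 6 and a median of 9.44 in cluster 7.

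None of the 8 genes of the cluster 6 group and none of the 6 of the cluster 7 group passed both limits. For term the log2 fold change was -0.55 with an adjusted p of 0.00773 (edgeR), short of the limit on size. Membership of these groups rests on the cluster means compared here, so a higher mean in cluster 7 is fixed for the last group and the split by peak cluster is a description. The 6 genes of the cluster 7 group had log2 fold changes between -0.03 for SNCF and 0.27 for Mdr49, the latter with an adjusted p of 0.239 (edgeR). The embryo at position 75 was the lowest of cluster 7 for the summed pulse genes, with 673, and 12 genes were also called without it. On leaving out single embryos CG43725 was called in 8 of 17 fits, Elba1 in 15, and bard and CG15876 in 16 each. Without the embryo at position 59, CG15876 was no longer called, and the calls over all genes went from 166 to 93. With sex as a covariate bard fell by 0.84 and was no longer called, while scw fell by 1.72 and was called. With limma on log2 values 4 genes were called in place of 12.

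**Figure D3:**
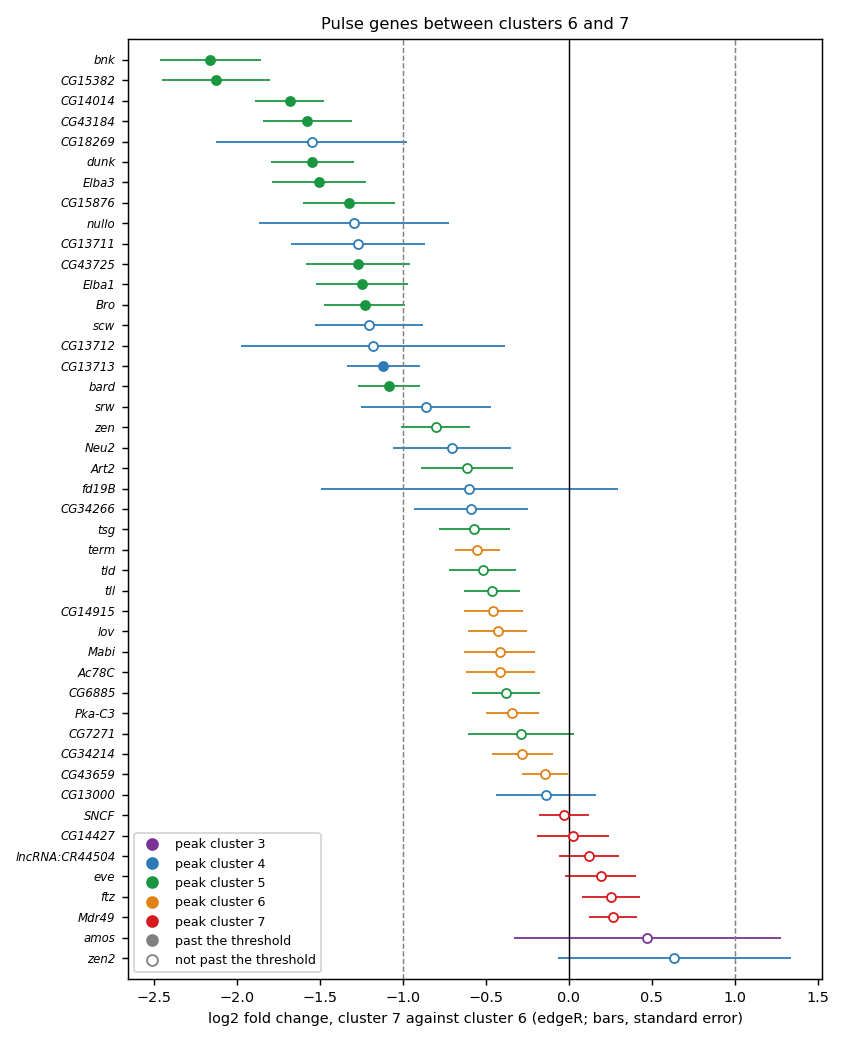
Log2 fold change of each of the 45 pulse genes between cluster 6 and cluster 7 (horizontal axis, edgeR, with standard errors), coloured by peak cluster and filled where the gene passed both limits. The 12 filled points are 11 genes of the cluster 5 group and CG13713, from -2.16 for bnk to -1.08 for bard, and dashed lines mark a log2 fold change of -1 and 1.

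The patterning classes held both pulse genes and kept zygotic genes, against 45 and 139 of the 7629 genes of the table. Of 15 gap genes tll was a pulse gene and 11 were kept zygotic genes. Of 11 pair-rule genes eve and ftz were pulse genes and 6 were kept. In the last window the gap genes Kr and hkb stood at 65% and 43.3% of their peak, where tll stood at 12.5%. Of 16 BMP genes 5 were pulse genes and 4 were kept. The kept BMP genes were dpp, the ligand partner of scw, at 132% of the peak window in the last window, the antagonist gene sog at 61%, cv-2 at 255% and brk at 69.2%. The ligand gene scw itself stood at 0.245%.

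Among 6 proneural genes amos was the one pulse gene. Its relatives ac, sc, l(1)sc and ato had a like early rise, with means of 16.9, 109, 19.96 and 11.4 at positions 41 to 49 and of 1.03, 5.88, 0.775 and 1.07 at positions 50 to 58. They came back in the last window with means of 27.5, 23.2, 65.9 and 9.71, while amos stood at 0.781. Of 5 measured cellularization genes, 3 were pulse genes and the other 2 began above the start limit. Of 4 genes of the Elba and Insensitive list 2 were pulse genes, and the others began above it. None of the 13 Enhancer of split and Bearded genes, the 11 mesoderm and gastrulation genes and the 5 genes of the nuclear cycle pause was one.

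The same lists gave different counts in the 2 comparisons outside the windows. Between clusters 1 and 2, where 0.906% of all genes were higher, 5 of 16 BMP genes were called higher, and these were the 5 pulse genes. Of the proneural genes 5 of 6 were higher, of the gap genes 5 of 15 and of the pair-rule genes 5 of 11. Between clusters 6 and 7, where 1.19% of all genes were lower, 4 of 5 cellularization genes and 2 of 4 genes of the Elba and Insensitive list were lower, and the 2 were Elba1 and Elba3. None of the gap, pair-rule, BMP and proneural genes was called lower. A list of 15 early genes of little described function, 11 of them pulse genes, was higher in full in cluster 2, and 5 of its genes were lower in cluster 7. This list was drawn up with the timing of such genes known, and its counts are no separate evidence.

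The structure of the genes was not used in the choice. Of the 45 pulse genes 30 (66.7%) had a single exon in every annotated transcript, against 28 of 139 kept zygotic genes (20.1%) and 9.89% of the table. The median spliced length was 1028 bases for the pulse genes, 2642 for the kept zygotic genes and 2029 for the table. A gene span under 2 kb was found for 36 pulse genes (80%), 25.9% of the kept zygotic genes and 35.7% of the table. CEL-Seq2 counts the 3' ends of transcripts, and whether these levels depend on length was not tested. The longest pulse genes were lov with a span of 53848 bases, Ac78C with 24 exons, and Pka-C3 with 9 exons, and all 3 had their peak in cluster 6. Of the 13 genes with a peak in cluster 3 or 4, 11 had a single exon, the exceptions being Neu2 and zen2.

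The pulse genes also lay inside and beside other genes. Of the 45 genes 13 (28.9%) lay wholly within an intron of another gene, against 10.1% of the kept zygotic genes and 3.91% of the table. Within 50 kb of another pulse gene lay 17 of the 45 (37.8%), in 7 groups, and within 50 kb of another kept zygotic gene lay 18 of 139 (12.9%). The sets differ in size, and the part of that in these shares was not tested.

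**Figure D4:**
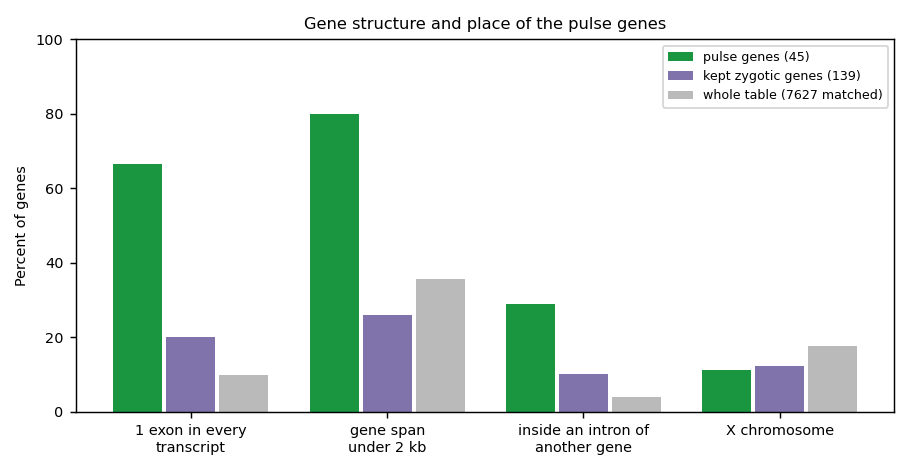
Share of genes (vertical axis, percent) with a single exon, a span under 2 kb, a place inside an intron of another gene, or a place on the X chromosome, for the 45 pulse genes, the 139 kept zygotic genes and the 7627 genes of the table found in the annotation. The first 3 shares are 66.7%, 80% and 28.9% for the pulse genes and 20.1%, 25.9% and 10.1% for the kept zygotic genes.

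The largest group lay on chromosome 3L between positions 4677832 and 4758708 (BDGP release 6). It holds CG34266, CG15876, CG13713, CG13712 and CG13711, each with a single exon. The last 4 lie in introns of RhoGEF64C, and CG34266 lies in an intron of axo. CG13713 and CG13711 are on the same strand as RhoGEF64C and the other 2 on the opposite strand. CG15876 averaged 252 ± 35.8 (SD, n = 9) in cluster 5, CG13711 21.7 ± 7.88, CG13713 14 ± 4.74, CG13712 5.66 ± 2.79 and CG34266 4.92 ± 2.24. The 5 neighbours thus differed widely in level. All but CG15876 had their highest mean in cluster 4, and all 5 were at or near 0 in cluster 9, with no embryo above 1.12.

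The other groups were pairs. Elba1 and Elba3 lie on chromosome 2L between 4683052 and 4688956, and zen2 and zen on 3R between 6743135 and 6754194, in the Antennapedia complex. The zen2 peak in cluster 4, of 10.3 ± 4.69 (SD, n = 3), came before the zen peak in cluster 5, of 63.2 ± 15.0 (SD, n = 9). CG14427 and nullo lie on the X chromosome between 7040603 and 7050321 on the same strand, and peaked in clusters 7 and 4. CG7271 and term lie on 3L between 18588759 and 18593771, and their peak means were 5.28 and 283. CG14014 and CG18269 lie on 2L between 5549709 and 5552756, and CG14915 and CG43725 on 2L between 11071027 and 11075962. Of these 6 pairs Elba1 and Elba3 alone had the same peak cluster, and their ranges in it overlapped. For CG7271 and term the difference in peak cluster is nominal. CG7271 averaged 5.28 in cluster 5 and 5.11 in cluster 6, and term averaged 281 and 283.

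In 8 of the 45 genes the annotated span touches an exon of another gene, 2 of them on the same strand. Whether the authors counted by strand was not given in the sources used here. For CG15382, CG14915, lov, CG34214, SNCF, Mdr49, eve and lncRNA:CR44504, reads of the 2 genes may therefore not have been told apart.

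Sex was not used in the choice either. The pulse genes held 5 X-linked genes (11.1%, against 12.2% of the kept zygotic genes and 17.6% of the table): nullo, CG13000, fd19B, tsg and CG14427. In an additive edgeR fit over clusters 2 to 7 all 5 had a higher estimate in females, with a median log2 difference, female minus male, of 0.58 and a range from 0.23 to 0.91. The median was 0.02 for the other 40 pulse genes, 0.56 for the 17 X-linked kept zygotic genes and 0.03 for all 1339 X-linked genes tested.

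In the joint test of all sex terms over the clusters, 2 of the 45 pulse genes, CG14427 and bard, passed an adjusted p of 0.01 (edgeR), against 0.407% of all genes. CG14427 had an adjusted p of 0.000226. Its 7 female embryos of cluster 7 ran from 58 to 89.3 with a median of 79.6, and its 3 male embryos held 22.9, 37.6 and 44.2. The sexes did not overlap in cluster 7, where 0.84% of all genes had every female above every male and CG14427 was the 1 such pulse gene. The female mean was the higher in 6 of the 6 clusters from 2 to 7. The female mean was 158% of the male mean in cluster 2 and 214% in cluster 7. In the additive fit the log2 difference was 0.91 ± 0.11 (SE), with an adjusted p of 2.42e-07 (edgeR), and without cluster 5 it was 0.90. In cluster 9 the female mean was 8.59 and the male mean 8.11, and the ranges overlapped.

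The other 4 X-linked genes did not pass the joint test, with adjusted p from 0.613 to 0.839 (edgeR). With a spline of position in place of the clusters, the additive fit also called CG13000, with an adjusted p of 0.00263 (edgeR). In CG13000 the 3 males of cluster 7 ran from 5.93 to 10.1 and the 7 females from 8.44 to 26. For tsg the female mean was 195% of the male mean in cluster 2 but 81.3% in cluster 5.

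The autosomal gene bard passed the joint test with an adjusted p of 0.00251 (edgeR), and its male mean was under its female mean in clusters 1 and 4 alone. In cluster 6 its 5 males ran from 226 to 323 and its 2 females held 153 and 183, an order that 3 of the 45 pulse genes and 4.23% of all genes had in that cluster. In the last cluster the 4 males held 17.1, 11.7, 7.45 and 11.4 normalized UMIs and the 5 females 3.27, 0.609, 1.28, 0.859 and 0.289, in pseudo-time order. The sexes did not overlap in the last cluster. The 4 males were at positions 76 to 79 and the 5 females at positions 80 to 84. In cluster 6, too, every male came before every female in pseudo-time. Sex and pseudo-time therefore cannot be told apart in cluster 6 or in cluster 9. In the additive fit over clusters 2 to 7 bard had a log2 difference of -0.31 with an adjusted p of 0.654 (edgeR). In cluster 9 Pka-C3 and Bro also had every male above every female, the former with males from 17.2 to 37 and females from 1.72 to 12.5. For Bro this rests on few molecules, with 5 UMIs over the 4 males and 0 over the 5 females. Of the 45 genes 3 had this order and none the reverse, against 2.11% and 3.32% of all genes tested.

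**Figure D5:**
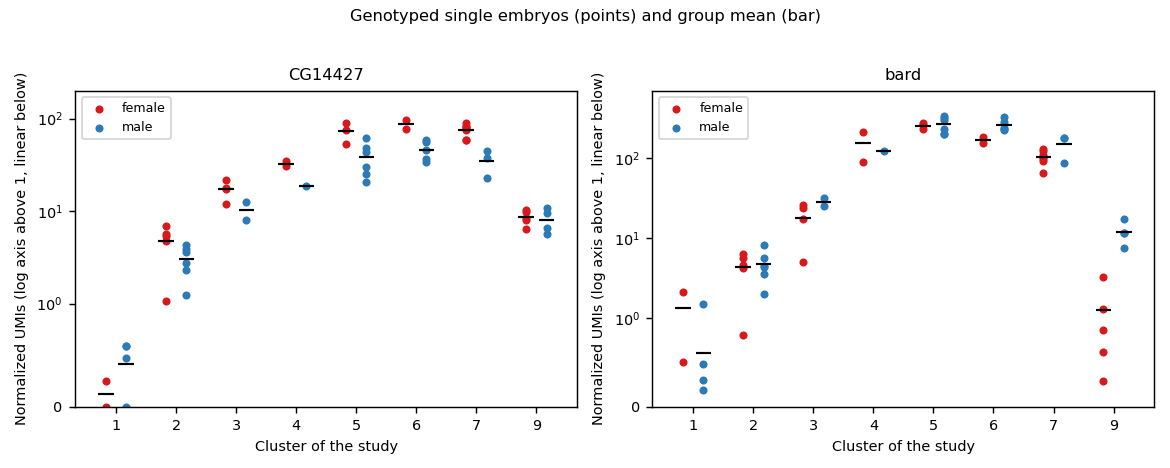
Normalized UMIs of CG14427 and bard (vertical axis, logarithmic above 1 and linear below) in the 61 genotyped embryos by cluster (horizontal axis), with a point per embryo and a bar for the mean of each sex. In cluster 7 the females hold 58 to 89.3 and the males 22.9 to 44.2 for CG14427, and in cluster 9 for bard the males hold 7.45 to 17.1 and the females 0.289 to 3.27.

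No pulse gene differed between the cages in edgeR, against 0% of all genes, and DESeq2 and limma also called none. At an unadjusted p under 0.05 edgeR had 4 of the 45 genes and 450 of the 7619 tested, DESeq2 had 2 and 435, and limma 3 and 403. The lowest adjusted p of a pulse gene was 0.59, for CG13713.

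Embryos of the same cluster differed among themselves in the level of the pulse genes. Over the 27 pulse genes with a cluster 5 mean of at least 20, the coefficient of variation between the 9 embryos had a median of 21.9% and ran from 11.4% for term to 46.6% for CG14427. It had a median of 29.8% for 65 kept zygotic genes and of 19.3% for 2299 genes of the table above the same level. In cluster 7 the median was 32.8% for 16 pulse genes, from 20.5% for term to 56.9% for bnk, against 26.6% for the kept zygotic genes and 20.5% for the table. The 10 embryos of cluster 7 span positions 64 to 75, and the part of the order in this spread was not tested. In cluster 5 CG14427 averaged 72.9 in the 3 females and 38.3 in the 6 males. The part of sex in the spread of CG14427 was not tested.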

How the data were processed

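The members and the gene lists were chosen with earlier results of these data known. Per the labels and the study's methods, reads of CEL-Seq2 libraries from single embryos were mapped and counted with STAR 2.7.8a (STARsolo) on release 6 of the fly assembly. The raw tables deposited by the authors hold UMI counts of each gene under each barcode, without a filter. The values of the pseudo-time table, a score deposited by the authors, are UMI counts divided by the embryo's total and multiplied by the smallest total, with 0.1 added. ERCC spike-in RNA was part of the protocol but not of this scaling. After 0.1 was subtracted, whole counts were recovered for 100% of values (to within 0.0001), and each of the 84 embryos had a raw barcode with the same count for at least 99.97% of 7256 shared symbols. Clusters and sexes were taken from the study's tables and cages from the embryo names. The labels name 2 libraries but not the library of each embryo. The match of counts was not used to assign libraries, and a library effect was not tested. Each embryo was 1 replicate.

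All 7619 genes tested had at least 3 counts in 5 embryos. The test was the edgeR 4.0.16 quasi-likelihood F test with TMM factors and Benjamini-Hochberg adjustment. For sex, all sex terms of a spline over the clusters (7 degrees of freedom) were tested jointly at an adjusted p under 0.01. Alternatives were DESeq2 1.42.0, limma 3.58.1 on log2(value + 1), library totals, other filters and covariates, other limits of the rule, and single embryos left out. In counts simulated for clusters 7 and 6 with 200 of 7456 genes changed, edgeR recovered 199 with 3 false calls. This recovery holds for those counts alone. In the embryos, the calls over all genes between clusters 7 and 6 ran from 93 to 211 on leaving out single embryos. The genes named are the 4 highest of each peak cluster, pulse genes of the role lists, those called for sex, those next to a limit and neighbouring members. Others were added after their values were seen. Gene positions are those of Ensembl release 115, in which 7627 of 7629 genes were found. Python 3.11.15 and R 4.3.3 were used.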

Additional observations from a re-analysis of the deposited data

Results flagged for a closer look

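In groups of 4 to 10 embryos, an embryo far from the others by Dixon's criterion was found in 10 of 110 groups tested. The groups share embryos, and a sum can hold a gene that was also tested by itself. The tests are therefore not independent, and the count is a description. The embryo at position 75, the last of cluster 7, had the lowest sum of the 8 genes with a peak in cluster 6, with 336 against 689 for the next, and the lowest level of CG14915, with 51.4 against 137 for the next. The embryo at position 77 had the highest such sum in cluster 9, with 62.8 against 38.3 for the next. In cluster 6 scw reached 22 at position 65, against 10.7 for the next embryo, and SNCF reached 186 at position 66, against 121. In cluster 3 Pka-C3 reached 4.0 at position 41, against 1.94, and eve reached 3.97 at position 44, against 2.04. The 3 further cases were embryos of cluster 9 with few molecules: scw at 0.859, nullo at 0.937 and bnk at 1.22. Their cause was not tested.

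Outside the 84 embryos, the raw counts hold 38 barcodes with at least 250000 UMIs. Their summed pulse genes were at most 149 in 35 of them, but 1 barcode held 3518, inside the range of cluster 5, and the next held 545. The former was matched to no embryo of the table and entered no comparison.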

How the results depend on the processing

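The number of pulse genes was 45 and ran from 36 (a last window under 10% of the peak, or a peak of at least 10) to 54 (under 30%), and from 44 to 47 on leaving out single embryos. Between clusters 2 and 1 the 34 calls became 34 to 36 on leaving out single embryos, and the 322 calls over all genes 301 to 346. The latter fell to 189 with limma. Between clusters 7 and 6 the 12 calls became 9 to 13 and the 166 calls over all genes 93 to 211 on leaving out single embryos, with 93 without the embryo at position 59. With limma they were 4 and 74. For sex, an additive term called 1 pulse gene in place of 2, CG14427, over clusters 2 to 7 with or without cluster 5. The 31 genes called over the whole table became 62 with DESeq2, 16 with a spline of position, and 7 with an additive term without cluster 5, an alternative chosen after seeing the data. Cage gave 0 calls in every fit. Of 1038 values for single named genes under alternatives, 1024 kept their side of the threshold, 9 lost it, 5 passed it and 0 reversed. Most of these alternatives left out 1 embryo and shared all others with the main fit, so the values are not independent. The gene bard lost its sex call in all 3 additive fits (adjusted p 0.654 to 1.0). The causes were not tested. Depth limits the low end: with 1 to 3 UMIs in cluster 1, 15 genes have uncertain folds. No paired analysis was possible because the embryos carry no shared replicate numbers.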

Other observations

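The study set aside some samples as unfertilized eggs and others as older than 3 h. Which of the 38 barcodes outside the 84 embryos these were was not worked out here. Their summed level of the pulse genes ran from 4.48 to 3518 with a median of 47.7, and it was below 200 in 35 of them. The 2 highest of these 35, with 144 and 149, held most of it in Pka-C3, with 109 and 111 normalized UMIs, and 12 of the 45 genes had any UMI there. Over the 38 barcodes lov had a median of 25.1, which is 16.2% of its peak mean, and a highest level of 83.3. Among the barcodes outside, bnk stood at 471 in the highest and at 43.7 in the one with the next highest level of bnk.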
